A study of Mus musculus with 52 samples.

Results

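The VEGF and apelin ligands and receptors were followed through 40 RNA libraries and 12 chromatin libraries of mouse vascular tissues. The 9 genes, taken by name from 49585 genes, were the VEGF receptors Kdr, Flt1 and Flt4, the apelin receptor Aplnr, the ligands Vegfa, Vegfc, Pgf and Apln, and Esm1, a proteoglycan secreted by sprouting endothelium. For each gene the estimated reads and the TPM (a level corrected for transcript length and library size) were summed over its transcripts. All 9 were tested wherever they passed the low-count filter, which left out only Aplnr, in the RiboTag input libraries.

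Vascular endothelial growth factors are secreted by parenchymal cells and bind receptor tyrosine kinases on endothelial cells (ECs). KDR (VEGFR2) carries most of the mitogenic and permeability signal of VEGF-A, FLT1 (VEGFR1) binds VEGF-A and PGF tightly and is also made as a soluble decoy, and FLT4 (VEGFR3) is the receptor of VEGF-C. Apelin is a secreted peptide made by sprouting ECs and other cells, and its G protein-coupled receptor APLNR marks venous and angiogenic ECs. Continuous VEGF signaling maintains the fenestrated capillaries of the pituitary and the choroid plexus, whereas beta-catenin signaling maintains the blood-brain barrier (BBB) vessels of the cerebellum and cortex.

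The sorted-cell experiment compared ECs (GFP-positive) with the remaining cells (GFP-negative) of 3 tissues, namely cerebellum and the 2 lobes of the pituitary (anterior and posterior). The wild type (WT) carried Tie2-GFP alone. The beta-catenin stabilized animals carried Tie2-GFP, Pdgfb-CreER and BcatEx3fl (Ctnnb1flex3/+), an allele whose exon 3 is excised by Cre, and had received 100 µg 4-hydroxytamoxifen (4HT) at postnatal day 10, so that in this experiment Cre and 4HT were present in the stabilized group alone and cannot be told apart from the allele. Each pituitary replicate pooled 20 to 30 male mice aged 30 to 90 days. The RiboTag experiment compared ribosome-bound RNA pulled down from Pdgfb-CreER cells with the input homogenate of the cortex and of the choroid plexus at 6 to 8 weeks, in RiboTag; Pdgfb-CreER animals (WT) and RiboTag; Pdgfb-CreER; BcatEx3fl animals (stabilized). Both RiboTag genotypes had received 4HT and all animals were male, and each choroid plexus replicate pooled the plexi of 3 to 4 animals. Pdgfb-CreER acts in ECs and also in the other cells that use the Pdgfb promoter, and recombination need not reach every EC. Each of the 26 groups held 2 replicates, and the p-values rest on the spread between such pairs, which edgeR pools over all groups of a fit. Where a fit of only the groups compared, with fewer libraries to estimate the spread, ended a call, its adjusted p is given. One library of stabilized anterior pituitary ECs was titled anterior but tagged posterior pituitary, and was taken as anterior.

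Estimated reads per library ran from 12157485 to 37529274 in the sorted cells and from 6409013 to 21399125 in the RiboTag samples. The EC marker list of 10 genes summed to 2023–6679 TPM in the GFP-positive libraries against 1.48–34.7 TPM in the GFP-negative ones, and to 393–1166 TPM in the bound against 18.9–51.8 TPM in the input libraries. Axin2, a direct target of beta-catenin, was higher in the stabilized than in the WT libraries of every EC group, from 0.356 and 0.405 TPM to 26.7 and 28.1 TPM in the posterior pituitary. Several libraries stood apart. One WT cerebellum GFP-negative library held choroid plexus epithelium markers at 4760 TPM against 58.6 TPM in the other. The TPM-weighted mean effective transcript length was 511–628 bases in the 4 WT cortex RiboTag libraries and 209–313 bases in the other 12, so that genotype in the cortex, and cortex against choroid plexus in WT, cannot be told apart from this difference. It was 576 and 511 bases in WT posterior pituitary ECs against 357 and 351 bases in the stabilized ones.

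**Figure D1:**
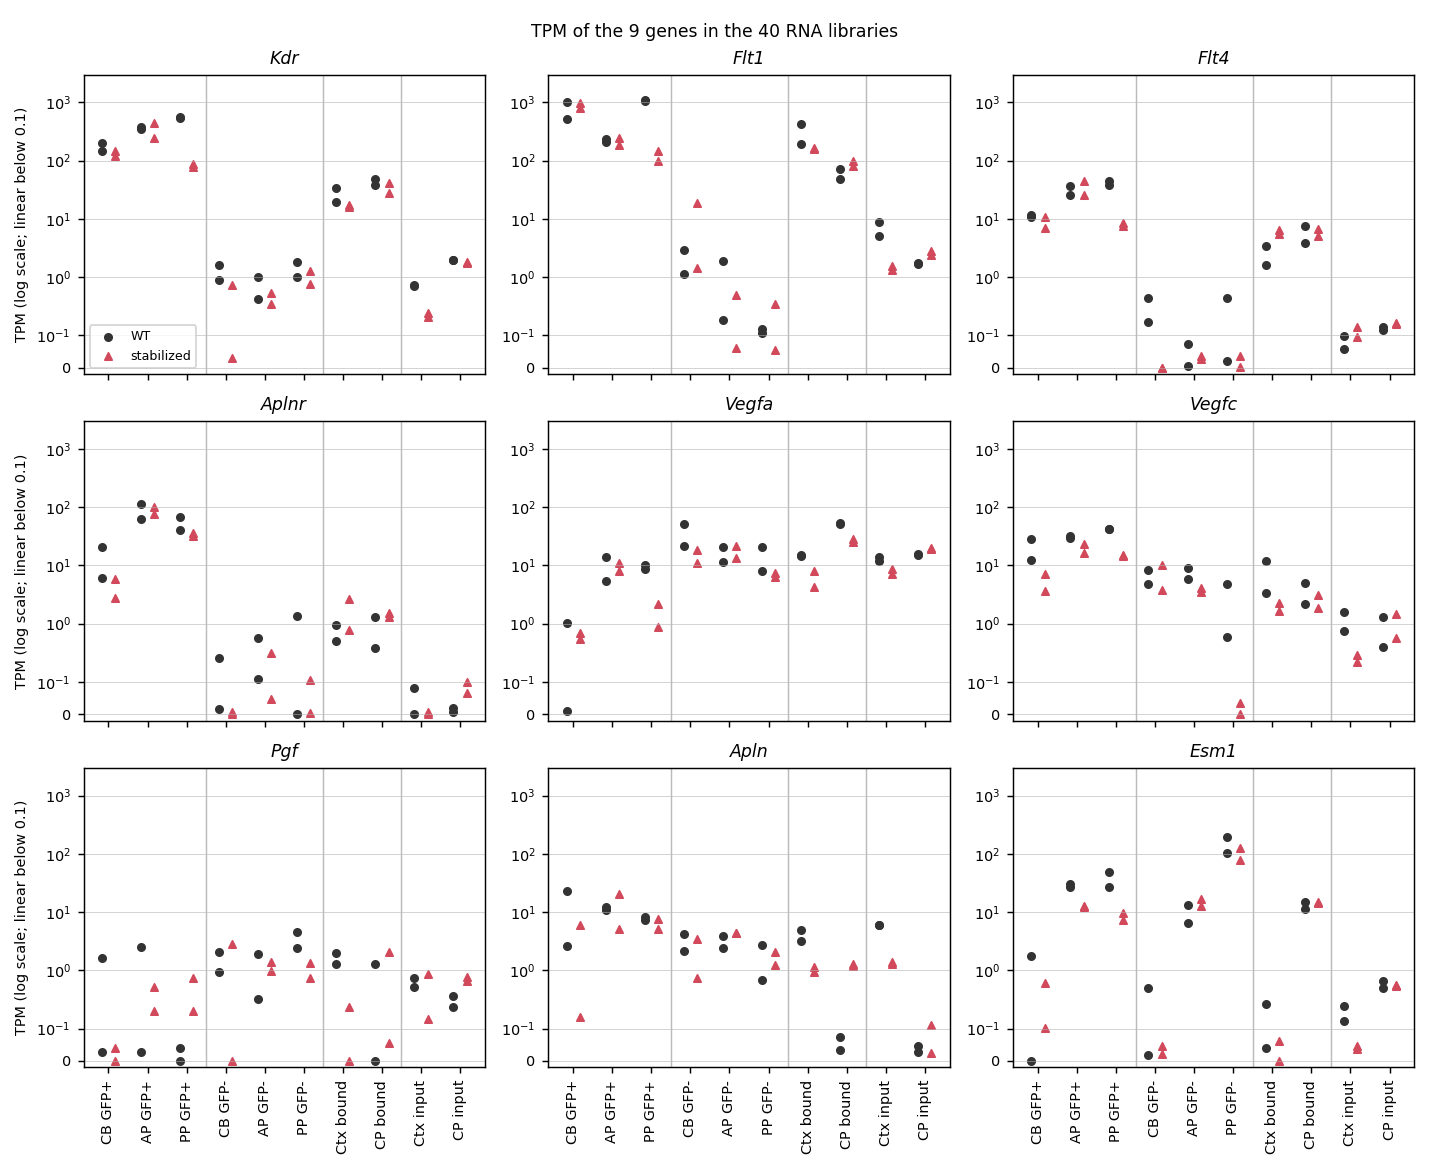
Level of each of the 9 genes in every RNA library, in TPM on a log axis, with 1 point per library and the groups in columns by tissue, fraction and genotype. The 4 receptors are high in the GFP-positive and bound columns, Vegfa is high in the cerebellum GFP-negative and choroid plexus columns, and Esm1 is highest in the posterior pituitary GFP-negative columns.

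All 4 receptors were enriched in the EC fraction of every WT tissue. Of the ligands Vegfc alone was, in the posterior pituitary. Of the 9 genes, 5 differed between GFP-positive and GFP-negative cells in the cerebellum (11.3% of 21343 genes differed; a call needs an edgeR quasi-likelihood adjusted p under 0.05 and at least a 2-fold change), 4 in the anterior pituitary (11.3%) and 5 in the posterior pituitary (14.5%). Fewer ECs in a fraction and less RNA per EC cannot be told apart in such bulk libraries.

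Kdr, the main signaling receptor of VEGF-A (GRCm38 chr5:75932827-75978458, minus strand), stood in WT cerebellum at 148 and 202.7 TPM in the 2 EC libraries and 0.888 and 1.63 TPM in the 2 GFP-negative libraries. It stood at 347 and 372 TPM in ECs of the anterior lobe and 555 and 536 TPM in ECs of the posterior lobe. The log2 fold change of EC over GFP-negative cells was 6.72 (SE 0.83, adjusted p = 2.94e-05) in the cerebellum, 8.87 (SE 0.91, adjusted p = 4.78e-06) in the anterior and 8.45 (SE 0.89, adjusted p = 3.23e-06) in the posterior pituitary. Flt1, the high-affinity and decoy receptor (chr5:147561604-147726011, minus strand), stood at 1003 and 507 TPM in WT cerebellum ECs against 1.14 and 2.97 TPM in the GFP-negative cells, and the EC and GFP-negative libraries did not overlap for either receptor in any tissue. Flt4, the VEGF-C receptor (chr11:49609263-49652739, plus strand), reached 10.6 and 11.4 TPM in cerebellum, 25.3 and 37.0 TPM in anterior pituitary and 37.6 and 44.8 TPM in posterior pituitary ECs. Flt4 also marks lymphatic vessels, and its cerebellum call was lost without GFP-negative replicate 2 (adjusted p = 0.0693).

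Aplnr (chr2:85136225-85139923, plus strand) reached 6.09 and 20.9 TPM in cerebellum, 114 and 62.8 TPM in anterior pituitary and 66.6 and 41.3 TPM in posterior pituitary ECs of the WT. Its EC enrichment was a log2 fold change of 6.02 (SE 1.65, adjusted p = 0.0214), 7.13 (SE 1.72, adjusted p = 0.00993) and 6.52 (SE 1.68, adjusted p = 0.0117) in the 3 tissues. The Kdr and Flt1 calls, and the Aplnr call of the posterior pituitary, held without each library in turn. With only the groups compared the Aplnr call had an adjusted p of 0.106 in the posterior pituitary and 0.0597 in the cerebellum. The cerebellum Aplnr call was lost without GFP-negative replicate 1 (adjusted p = 0.141) or GFP-positive replicate 2 (adjusted p = 0.108), and the anterior pituitary call without GFP-negative replicate 2 (adjusted p = 0.102).

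Vegfa (chr17:46016993-46032369, minus strand), the principal angiogenic ligand, was the reverse of its receptors in the cerebellum, at 51.6 and 21.7 TPM in the GFP-negative libraries and 1.03 and 0.0114 TPM in ECs (log2 fold change -5.70, SE 1.23, edgeR adjusted p = 0.00434; 0.0801 with only the groups compared). In the anterior pituitary the GFP-negative libraries held 11.6 and 20.9 TPM and the ECs 5.37 and 13.7 TPM, and in the posterior pituitary they held 7.99 and 20.7 TPM and the ECs 10.3 and 8.74 TPM. The 2 fractions overlapped in both pituitary lobes and the test was not passed there (adjusted p = 0.97 and 1). The ECs of the 2 lobes also carried the pituitary endocrine marker list, at 6881 and 4418 TPM in the anterior and 3377 and 478 TPM in the posterior lobe, and the part of these cells in the Vegfa level of the pituitary EC libraries was not tested. Vegfc (chr8:54077606-54187096, plus strand), the ligand of FLT4, passed the test in the posterior pituitary alone, where ECs held 42.9 and 42.0 TPM and GFP-negative cells 0.583 and 4.77 TPM (log2 fold change 3.59, SE 0.82, edgeR adjusted p = 0.00492; 0.0805 with only the groups compared). It was measured in cerebellum ECs at 28.1 and 12.4 TPM and in anterior pituitary ECs at 32.3 and 29.5 TPM, with adjusted p = 0.483 and 0.0904 against the GFP-negative cells. Apln (chrX:48025146-48034853, minus strand), the apelin gene, and Pgf (chr12:85166635-85177790, minus strand), a ligand of FLT1 alone, passed in no tissue.

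Esm1 (chr13:113209659-113218098, plus strand) is commonly used as an endothelial tip-cell gene, but its highest level was outside the ECs. The WT posterior pituitary GFP-negative libraries held 104 and 195 TPM, the ECs of that lobe 48.7 and 27.2 TPM. In the anterior pituitary the order was the other way, with 6.50 and 13.1 TPM in the GFP-negative cells and 30.0 and 27.1 TPM in the ECs. Neither difference passed the test (adjusted p = 0.257 and 0.383), and in the cerebellum no library exceeded 1.76 TPM. The posterior pituitary GFP-negative libraries carried the EC marker list at 6.07 and 1.48 TPM, against 6679 and 4452 TPM in the ECs. They held Pomc, the melanotroph and corticotroph prohormone, at 53740 and 55690 TPM against 6188 and 6604 TPM in the anterior pituitary GFP-negative cells, and the part of these cells in the Esm1 level was not tested. Esm1 overlaps Gzmk on the opposite strand, and reads of the 2 genes cannot be told apart where the counting ignores strand.

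Next, WT ECs were compared between the BBB vessels of the cerebellum and the fenestrated vessels of the 2 pituitary lobes. Values in this comparison are CPM (counts relative to library size) scaled by the trimmed mean of M-values over the 12 EC libraries, which are comparable between libraries of 1 gene but not between genes. Of the 9 genes, 3 differed between cerebellum and anterior pituitary ECs (5.26% of 17915 genes differed), 2 between cerebellum and posterior pituitary ECs (4.4%) and 1 between the 2 lobes (0.994%). All 6 calls were receptors, and the comparisons share WT libraries. Flt4, Kdr and Aplnr were lower in the cerebellum than in 1 or both lobes, and Flt1 was lowest in the anterior pituitary.

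Kdr measured 1431 and 2410.4 CPM in cerebellum, 3759.8 and 3703 CPM in anterior pituitary and 4154 and 5268 CPM in posterior pituitary ECs. Both cerebellum libraries were below all 4 pituitary libraries. The difference passed the test against the posterior pituitary (log2 fold change -1.29, SE 0.32, edgeR adjusted p = 0.0367) and not against the anterior pituitary (adjusted p = 0.129), and it was lost without cerebellum replicate 1 (adjusted p = 0.251) or posterior pituitary replicate 2 (adjusted p = 0.131), with an offset for transcript length (adjusted p = 0.0974) or with only the groups compared (adjusted p = 0.307). Flt1 measured 5964 and 5372 CPM in cerebellum, 1197 and 1243 CPM in anterior pituitary and 3512 and 5041 CPM in posterior pituitary ECs. The anterior pituitary libraries were the lowest, below the cerebellum (log2 fold change of cerebellum over anterior pituitary 2.22, SE 0.31, adjusted p = 6.36e-04) and below the posterior pituitary (anterior over posterior -1.81, SE 0.30, adjusted p = 0.0118). The first held without each library in turn, and the second was lost without anterior pituitary replicate 1 (adjusted p = 0.122) or 2 (adjusted p = 0.114), or with only the groups compared (adjusted p = 0.12).

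Flt4 measured 118 and 168 CPM in cerebellum, 339 and 449.7 CPM in anterior pituitary and 325 and 492 CPM in posterior pituitary ECs. It was lower in the cerebellum than in either lobe, with log2 fold changes of -1.46 (SE 0.32, adjusted p = 0.0165) and -1.51 (SE 0.32, adjusted p = 0.0161). Without cerebellum replicate 1 the adjusted p was 0.152 against the anterior and 0.153 against the posterior pituitary, without anterior pituitary replicate 2 it was 0.127, and without posterior pituitary replicate 2 it was 0.105. With a length offset the adjusted p was 0.0868 against the anterior and 0.058 against the posterior pituitary, and with only the groups compared it was 0.124 against the posterior pituitary. Aplnr measured 38.3 and 157 CPM in cerebellum, 374 and 339 CPM in anterior pituitary and 320.4 and 259 CPM in posterior pituitary ECs. It was lower in cerebellum than in anterior pituitary ECs (log2 fold change -1.87, SE 0.50, edgeR adjusted p = 0.0487), a call lost without cerebellum replicate 1 (adjusted p = 0.13), anterior pituitary replicate 1 (adjusted p = 0.168) or anterior pituitary replicate 2 (adjusted p = 0.132), or with only the groups compared (adjusted p = 0.165).

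The ligands of the WT ECs were not called between tissues. Apln, the apelin gene, differed more between the 2 cerebellum libraries (11.5 and 118 CPM) than between the pituitary lobes (56.9 and 48.1 CPM anterior, 27.9 and 34.3 CPM posterior). The first of these cerebellum libraries held the erythrocyte marker list at 65220 TPM and the other at 7177 TPM. The first was also the lower of the 2 for Kdr, Flt4 and Aplnr, and the higher for Flt1. The part of erythrocyte RNA in Apln and in these receptor levels was not tested. Vegfc measured 34.6 and 29.4 CPM in cerebellum, 63.7 and 58.4 CPM in anterior pituitary and 55.5 and 45.9 CPM in posterior pituitary ECs (adjusted p = 0.276 and 0.456 for cerebellum against each lobe). Esm1 measured 0 and 3.78 CPM in cerebellum against 56.6 and 41.7 CPM (anterior) and 57 and 47.2 CPM (posterior) in pituitary ECs, where the cerebellum libraries held 0 and 98 estimated reads. The Esm1 libraries of the cerebellum and the pituitary did not overlap, but the test was not passed (adjusted p = 0.0877 and 0.0933). Pgf did not exceed 3.06 CPM in any EC library.

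In the GFP-negative cells of the WT, the ligand Vegfa and Esm1 separated the tissues, in opposite directions. Of the 9 genes, 2 differed between cerebellum and anterior pituitary (8.77% of 19612 genes), 2 between cerebellum and posterior pituitary (9.88%) and 1 between the lobes (1.67%). Vegfa measured 110.5 and 72.0 CPM in cerebellum, 21.1 and 33.9 CPM in anterior pituitary and 18.6 and 12.2 CPM in posterior pituitary GFP-negative cells. Both cerebellum libraries were above all 4 pituitary libraries, with a log2 fold change of 1.73 (SE 0.49, adjusted p = 0.0471) over the anterior and 2.56 (SE 0.51, adjusted p = 0.00626) over the posterior pituitary. The cerebellum libraries held the astrocyte marker list at 7402 and 2047 TPM and, in the same order, the choroid plexus epithelium list at 58.6 and 4760 TPM, and the part of these cells was not tested. Against the anterior pituitary the call was lost without any 1 of the 4 libraries: adjusted p = 0.281 without cerebellum replicate 1, 0.065 without cerebellum replicate 2, 0.301 without anterior pituitary replicate 1 and 0.11 without replicate 2. Against the posterior pituitary it was lost without cerebellum replicate 1 (adjusted p = 0.0515) or posterior pituitary replicate 2 (adjusted p = 0.05001). With the length offset the log2 fold change was 1.38 (adjusted p = 0.229) over the anterior and 1.78 (adjusted p = 0.0964) over the posterior pituitary, and neither call was kept.

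Esm1 measured 0.0282 and 1.30 CPM in cerebellum, 10.7 and 18.2 CPM in anterior pituitary and 171 and 238 CPM in posterior pituitary GFP-negative cells. The 3 tissues did not overlap and each step passed the test. The log2 fold change of cerebellum was -4.46 (SE 0.88, adjusted p = 0.00629) over the anterior and -8.29 (SE 1.03, adjusted p = 2.34e-04) over the posterior pituitary, and that of the anterior over the posterior pituitary was -3.82 (SE 0.82, adjusted p = 0.0349). The step from cerebellum to anterior pituitary was lost with only the groups compared (adjusted p = 0.148). The step between the lobes was lost without anterior pituitary replicate 1 (adjusted p = 0.285), anterior pituitary replicate 2 (adjusted p = 0.164) or posterior pituitary replicate 2 (adjusted p = 0.0989), and with the length offset (adjusted p = 0.0751). The stabilized animals showed the same order of Esm1 levels, with 39.4 and 35.8 CPM in anterior lobe and 311 and 228 CPM in posterior lobe GFP-negative cells. Of the other ligands, Vegfc measured 16.3 and 14.2 CPM in cerebellum, 11.7 and 15.3 CPM in the anterior and 1.22 and 6.68 CPM in the posterior lobe, and Apln 18.9 and 15.1 CPM, 19.9 and 9.84 CPM and 13.9 and 2.26 CPM in the same order. Neither passed the test between any 2 tissues, and their posterior pituitary replicates differed several-fold.

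Beta-catenin stabilization in ECs was followed by few calls among the 9 genes, a fall of Kdr in the posterior pituitary and of Vegfc in the cerebellum. In cerebellum ECs 1 of the 9 genes differed between stabilized and WT (0.648% of 17915 genes differed), in anterior pituitary ECs 0 (0.458%) and in posterior pituitary ECs 1 (1.79%). For the 0 in the anterior pituitary, edgeR gave 0 of the 9 genes an unadjusted p under 0.05 and DESeq2 called 0.

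In the posterior pituitary, Kdr measured 4154 and 5268 CPM in WT and 1152 and 1382 CPM in stabilized ECs, so that the genotypes did not overlap (log2 fold change -1.89, SE 0.32, edgeR adjusted p = 0.0118). In TPM it stood at 555 and 536 in WT and 76.1 and 88.8 in stabilized ECs, a larger difference, and with the length offset the log2 fold change was -1.89 (adjusted p = 0.0278). The other 2 VEGF receptors were lower in the same libraries without passing the edgeR test. Flt1 measured 3512 and 5041 CPM in WT and 1579 and 2239 CPM in stabilized ECs (log2 fold change -1.16, SE 0.30, adjusted p = 0.0759). Flt4 measured 325 and 492 CPM in WT and 161 and 179 CPM in stabilized ECs (log2 fold change -1.26, SE 0.32, adjusted p = 0.0745). DESeq2 called all 3, and with the length offset edgeR called Flt1 (log2 fold change -2.29, adjusted p = 0.00769) and not Flt4 (log2 fold change -1.55, adjusted p = 0.0949). Aplnr measured 320.4 and 259 CPM in WT against 379 and 335 CPM in stabilized ECs of this lobe (adjusted p = 0.855). In TPM its order was the reverse, at 66.6 and 41.3 TPM in WT and 36.7 and 32.5 TPM in stabilized ECs. The EC marker list of 10 genes stood at 6679 and 4452 TPM in these WT and 2372 and 2023 TPM in these stabilized libraries. The microglia list stood at 52.1 and 36.7 TPM in WT and 306 and 222 TPM in stabilized libraries, and the part of cell composition in the receptor levels was not tested. The Kdr call was lost without WT replicate 2 (adjusted p = 0.0513), stabilized replicate 1 (adjusted p = 0.166) or stabilized replicate 2 (adjusted p = 0.0862), or with only the groups compared (adjusted p = 0.115).

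In the cerebellum, Vegfc measured 34.6 and 29.4 CPM in WT and 8.95 and 4.41 CPM in stabilized ECs (log2 fold change -2.26, SE 0.41, edgeR adjusted p = 0.0288). The stabilized libraries held 256 and 97 Vegfc reads. The call was lost without WT replicate 1 (adjusted p = 0.0956), WT replicate 2 (adjusted p = 0.0613) or stabilized replicate 2 (adjusted p = 0.0946), and when the fit was corrected for transcript length (adjusted p = 0.321) or held only the groups compared (adjusted p = 0.433). The cerebellum receptors were not called: Kdr measured 1575 and 1459 CPM, Flt1 7323 and 7197 CPM and Flt4 90.5 and 146 CPM in the stabilized ECs, with adjusted p = 0.75, 0.699 and 0.825 against WT. Aplnr measured 41.0 and 23.1 CPM in stabilized against 38.3 and 157 CPM in WT cerebellum ECs, where the WT replicates themselves lay far apart (adjusted p = 0.27).

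In the anterior pituitary, Kdr measured 3861 and 2822 CPM, Flt1 1463 and 1578 CPM and Flt4 478 and 386 CPM in the stabilized ECs, with adjusted p = 1, 0.879 and 1 against WT. Aplnr was above WT in both stabilized libraries, at 575 and 558 CPM against 374 and 339 CPM, and did not pass the test (adjusted p = 0.771). Esm1 was below WT in both, at 22.3 and 24.3 CPM against 56.6 and 41.7 CPM (adjusted p = 0.942), and likewise in the posterior pituitary, at 28.6 and 21.4 CPM against 57 and 47.2 CPM (adjusted p = 0.761).

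**Figure D2:**
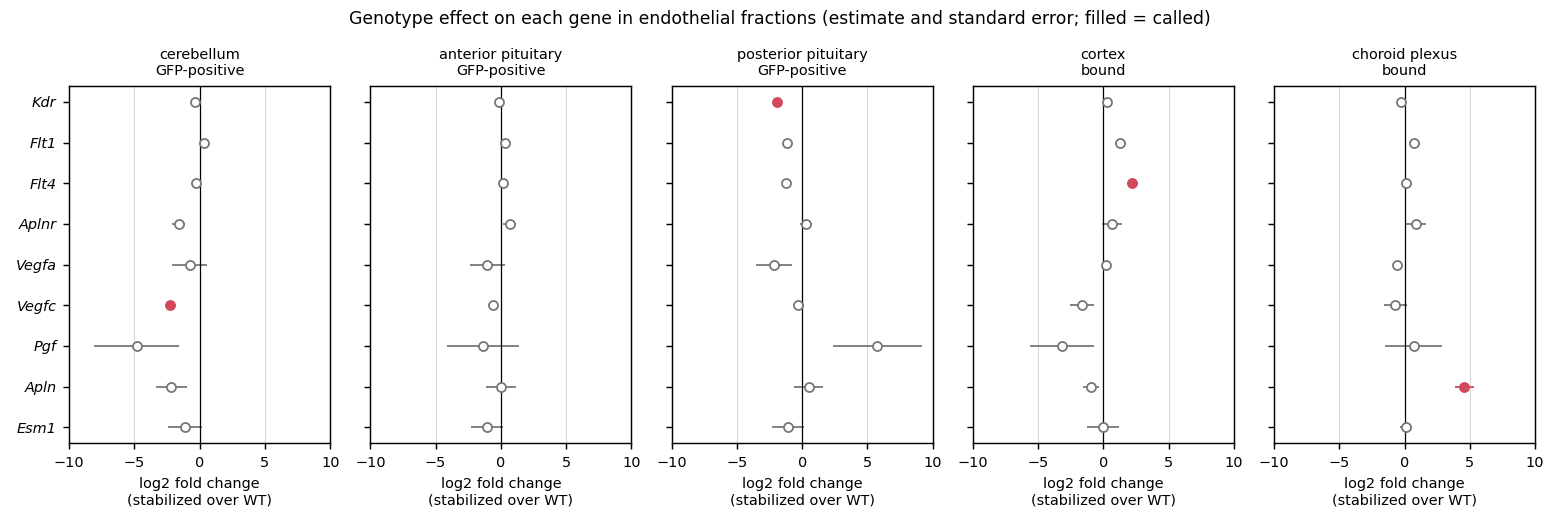
Log2 fold change of stabilized over WT with its standard error for each of the 9 genes in the 3 EC and 2 bound comparisons. Filled points passed an adjusted p of 0.05 with at least a 2-fold change. The filled points are Kdr in posterior pituitary ECs, Vegfc in cerebellum ECs, Flt4 in bound cortex and Apln in bound choroid plexus.

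The difference between tissues in the response to stabilization was tested directly. Of the 9 genes, 0 differed between the posterior and anterior pituitary responses (0.128% of genes; 3 had an unadjusted p under 0.05 in edgeR and DESeq2 called 2, Kdr and Flt1). Likewise 0 differed between posterior pituitary and cerebellum (0.927%; 6 had an unadjusted p under 0.05 and DESeq2 called 3, Kdr, Flt1 and Vegfc) and 0 between anterior pituitary and cerebellum (0.519%; 2 had an unadjusted p under 0.05 and DESeq2 called 1, Aplnr). In the latter 2 comparisons the median gene shifted by 0.35 and 0.36 on the log2 scale. For Kdr, the posterior minus the anterior pituitary response was -1.74 (SE 0.45, adjusted p = 0.223) on the log2 scale. By edgeR, the fall of Kdr in 1 lobe was not shown to differ from its response in the other, whereas DESeq2 called the difference. Without the low-count filter, or without WT posterior pituitary replicate 1, edgeR called 2 of the 9 genes for this difference.

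The GFP-negative cells gave 0 calls among the 9 genes for stabilized against WT in the cerebellum (0.76% of 19612 genes; 2 of the 9 genes had an unadjusted p under 0.05 in edgeR and DESeq2 called 1, Flt4), 0 in the anterior pituitary (0.0408%; 0 had an unadjusted p under 0.05 and DESeq2 called 0) and 0 in the posterior pituitary (0.133%; 1 had an unadjusted p under 0.05 and DESeq2 called 1, Vegfc). In cerebellum, Flt4 had 177 and 95 reads in the WT libraries against 0 and 0 in the stabilized ones. In the posterior lobe, Vegfc had 46 and 145 reads in WT libraries against 2 and 0 in stabilized ones. These DESeq2 calls therefore rest on few reads. Vegfa measured 61.7 and 26.1 CPM in the stabilized cerebellum GFP-negative cells against 110.5 and 72.0 CPM in WT (adjusted p = 0.458), a comparison in which the median gene also fell by 0.26 on the log2 scale. In stabilized pituitary Vegfa measured 35.7 and 39.2 CPM in the anterior and 23.1 and 30.4 CPM in the posterior lobe (adjusted p = 0.993 and 0.56).

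**Figure D3:**
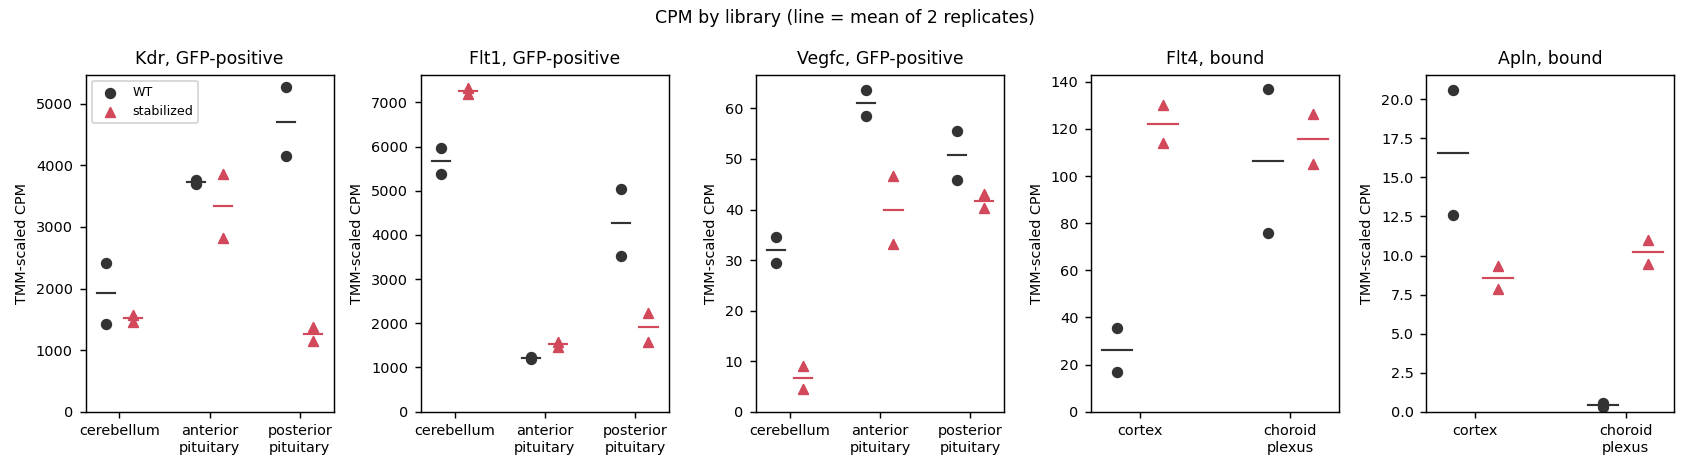
TMM-scaled CPM on a linear axis for Kdr, Flt1 and Vegfc in the EC fit and for Flt4 and Apln in the bound fit, with 1 point per library and WT and stabilized side by side. The 2 stabilized posterior pituitary EC libraries sit below both WT libraries for Kdr and Flt1.

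Ribosome-bound RNA was enriched for the 4 receptors in both tissues. Of the 9 genes, 4 differed between bound and input RNA of WT cortex (11.6% of 18241 genes) and 5 in WT choroid plexus (15.3%), all of them higher in the bound RNA. In the cortex Kdr stood at 34.2 and 19.4 TPM bound and 0.701 and 0.742 TPM input, and in the choroid plexus at 38.3 and 48.9 TPM bound and 1.99 and 1.93 TPM input. Bound over input, the Kdr log2 fold change was 4.75 (SE 0.27, adjusted p = 4.42e-07) in cortex, where the median gene fell by 0.33, and 3.45 (SE 0.25, adjusted p = 4.23e-06) in choroid plexus. The Flt1 log2 fold change was 5.05 (SE 0.40, adjusted p = 2.59e-06) and 4.08 (SE 0.38, adjusted p = 1.72e-05), and that of Flt4 4.58 (SE 0.41, adjusted p = 6.35e-06) and 4.54 (SE 0.39, adjusted p = 1.20e-05). Aplnr had 79 and 55 bound reads against 0 and 10 input reads in WT cortex. In WT choroid plexus it had 26 and 84 bound reads against 2 and 1 input reads, and it was called in both tissues. The cortex Aplnr call had an adjusted p of 0.0519 with the preparation as a replicate block, 0.15 without input replicate 1 and 0.106 without bound replicate 1. It had 0.0754 with the length offset and 0.178 with only the groups compared. The choroid plexus Aplnr call had 0.0759 without input replicate 1, 0.129 without input replicate 2 and 0.0807 without bound replicate 2.

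In WT choroid plexus Vegfa stood at 50.7 and 52.8 TPM bound and 15.1 and 15.7 TPM input, higher in the bound RNA with an adjusted p of 0.034 but with a log2 fold change of 0.77, under the limit of 1. The choroid plexus bound libraries still carried the epithelium marker list at 22110 and 22890 TPM. Esm1 was the only non-receptor called, at 11.4 and 15.1 TPM bound and 0.646 and 0.497 TPM input in choroid plexus (log2 fold change 3.67, SE 0.46, adjusted p = 1.42e-04).

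Between the 2 WT tissues, 5 of the 9 genes differed in the bound RNA (29.7% of 16775 genes) and 7 of the 8 tested in the input (52.7% of 16085), in libraries whose effective transcript length differed as described. In the bound RNA, Kdr measured 300.1 and 172 CPM in cortex and 656 and 796 CPM in choroid plexus (log2 fold change of cortex over choroid plexus -1.62, SE 0.31, adjusted p = 0.00369). Flt4 measured 35.5 and 16.9 CPM in cortex and 75.8 and 137 CPM in choroid plexus (log2 fold change -2.02, SE 0.40, adjusted p = 0.00436). Vegfa measured 17.8 and 22.1 CPM in cortex and 172 and 155 CPM in choroid plexus (log2 fold change -3.04, SE 0.31, adjusted p = 1.51e-04). All 3 were lower in the cortex without overlap. Esm1 was nearly undetected in cortex, with 5 and 1 reads against 400 and 512 in choroid plexus. Apln was the reverse, with 187 and 401 reads in cortex and 2 and 4 in choroid plexus. Flt1 was not called, at 1591 and 620.1 CPM in cortex and 856 and 1200 CPM in choroid plexus (adjusted p = 0.867).

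In the input, which represents the whole tissue, Vegfa measured 20.7 and 23.0 CPM in WT cortex and 80.2 and 78.1 CPM in WT choroid plexus (log2 fold change -1.85, SE 0.11, adjusted p = 5.16e-06). Apln measured 24.4 and 20.9 CPM in cortex and 0.543 and 0.316 CPM in choroid plexus (log2 fold change 5.73, SE 0.48, adjusted p = 2.34e-05). Vegfa was higher in the choroid plexus and Apln in the cortex, each without overlap. In TPM the Vegfa difference was smaller, at 12.1 and 13.7 TPM in cortex and 15.1 and 15.7 TPM in choroid plexus, and with the length offset its log2 fold change was -2.24 (adjusted p = 8.17e-05). Kdr (log2 fold change -3.19, SE 0.14, adjusted p = 1.27e-06), Flt4 (-2.33), Esm1 (-4.16), Pgf (-1.96) and Flt1 (-1.14) were lower in cortex. The Kdr difference was smaller in TPM, by the input values given above for both tissues. The Flt1 direction turned to 0.034 with a length correction, and its change was -0.84, under the limit of 1, without cortex replicate 2. Pgf was lost with the length correction (log2 fold change -0.93, adjusted p = 0.357), and without cortex replicate 1 (adjusted p = 0.0862) or choroid plexus replicate 1 (adjusted p = 0.113).

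Stabilization was followed by a rise of Flt4 in the cortex and of Apln in the choroid plexus. In the bound RNA 1 of the 9 genes differed in cortex (6.32% of genes) and 1 in choroid plexus (0.852%). In the input 1 of 8 differed in cortex (11.8%) and 0 in choroid plexus (0.106%; 0 had an unadjusted p under 0.05 in edgeR and DESeq2 called 0). Flt4 measured 35.5 and 16.9 CPM in WT and 130.3 and 114 CPM in stabilized bound cortex RNA (log2 fold change 2.22, SE 0.40, adjusted p = 0.0137). It measured 0.620 and 0.859 CPM in WT and 3.23 and 2.31 CPM in stabilized input (log2 fold change 1.89, SE 0.38, adjusted p = 0.0111). In CPM the genotypes overlapped in neither, and both calls held with the length offset. In TPM, Flt4 stood at 3.44 and 1.63 in WT and 6.47 and 5.56 in stabilized bound RNA, without overlap, and at 0.0590 and 0.0991 in WT and 0.141 and 0.0950 in stabilized input, where the genotypes overlapped. The bound call was lost without stabilized replicate 1 (adjusted p = 0.0946) or 2 (adjusted p = 0.0662), and the input call without stabilized replicate 1 (adjusted p = 0.0663) or with only the groups compared (adjusted p = 0.0511). Flt1 measured 1591 and 620.1 CPM in WT and 2736 and 2696 CPM in stabilized bound cortex RNA (adjusted p = 0.0964). In TPM of all transcripts, the very short processed transcript included, the order was the reverse, at 416 and 194 TPM in WT and 156 and 164 TPM in stabilized, and with the length offset the log2 fold change was 0.09 (adjusted p = 0.941). On the 2 coding transcripts alone the genotypes overlapped, at 179.6 and 66.9 TPM in WT and 149 and 144 TPM in stabilized. Kdr measured 300.1 and 172 CPM in WT against 274 and 301 CPM in stabilized (adjusted p = 0.64). In TPM both stabilized libraries were below both WT ones for Kdr, at 15.8 and 16.9 against 34.2 and 19.4 TPM. In these bound libraries the microglia list stood at 3857 and 2787 TPM in WT and 1260 and 1107 TPM in stabilized, and the neuron list at 1275 and 1566 TPM in WT against 422 and 372 TPM in stabilized, and their part in the Flt4 rise was not tested. Over the bound libraries of both tissues, the EC marker list stood at 393–1031 TPM in WT and 833–1166 TPM in stabilized, and its part was not tested. As given above, genotype in the cortex cannot be told apart from the effective transcript length.

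Apln had 2 and 4 reads in the WT and 69 and 75 in the stabilized bound choroid plexus libraries, or 0.276 and 0.552 CPM against 9.47 and 11.0 CPM (edgeR adjusted p = 0.0266). In the cortex the order of the genotypes was opposite, with 12.6 and 20.6 CPM in WT and 9.31 and 7.84 CPM in stabilized bound RNA (adjusted p = 0.385). Apln was not called between bound and input RNA of WT cortex. The neuron and microglia lists were lower in these stabilized cortex libraries, as given beside Flt4, and their part in Apln was not tested. Genotype in the cortex also cannot be told apart from transcript length. The difference between the 2 responses passed the test, the single call among the 9 genes (2.15% of genes; log2 fold change 5.54, SE 0.96, edgeR adjusted p = 0.0262). With so few WT choroid plexus reads these fitted values depend on the prior count. The choroid plexus call was lost without WT replicate 1 (adjusted p = 0.2), WT replicate 2 (adjusted p = 0.0901), stabilized replicate 1 (adjusted p = 0.0656) or stabilized replicate 2 (adjusted p = 0.0615), with the length offset (adjusted p = 0.109) or with only the groups compared (adjusted p = 0.0684). In these bound libraries the choroid plexus epithelium list stood at 22110 and 22890 TPM in WT and 14720 and 12850 TPM in stabilized, and the microglia list at 84.3 and 102 TPM in WT and 108 and 152 TPM in stabilized, and their part in the Apln level was not tested. The difference of responses was lost without stabilized cortex replicate 1 (adjusted p = 0.127) or 2 (adjusted p = 0.119), WT choroid plexus replicate 1 (adjusted p = 0.0921) or 2 (adjusted p = 0.069), or stabilized choroid plexus replicate 2 (adjusted p = 0.0546), and with the length offset (adjusted p = 0.0655). In the choroid plexus input Apln measured 0.543 and 0.316 CPM in WT and 1.36 and 0.278 CPM in stabilized.

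Flt1 encodes a full-length receptor and a shorter secreted form, and the share of the short form was between 32.6% and 57.4% in every EC library. The secreted form made up 50.7 and 53.5% of the TPM of these 2 transcripts in the WT ECs of cerebellum. The shares were 32.6 and 36.4% for the anterior lobe and 42.8 and 41.2% for the posterior lobe. In bound RNA it made up 55.2 and 52.6% in WT cortex and 53.7 and 57% in WT choroid plexus. The WT anterior pituitary libraries had the lowest shares, against a median of 50.2% and a pooled replicate SD of 2.55 percentage points over the 10 EC groups. In the stabilized ECs the share was 49.1 and 46.8% in cerebellum, 36.6 and 44.8% in the anterior lobe and 50.2 and 46.6% in the posterior lobe. No test was run on these shares.

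A very short Flt1 transcript (chr5:147614756-147615242) took a large share of the Flt1 TPM of some groups. It held 57.1 and 32.7% of the Flt1 TPM in WT posterior pituitary ECs and 56.6 and 53.4% in WT cortex bound RNA, with no more than 0.938% of the estimated Flt1 reads of any library. On the 2 coding transcripts alone, Flt1 stood, for WT ECs, at 604 and 414 TPM in cerebellum, 107 and 126 TPM in the anterior lobe and 468 and 439 TPM in the posterior lobe. In the stabilized ECs it stood at 620.3 and 565 TPM in cerebellum, 145 and 120.3 TPM in the anterior lobe and 91.5 and 128 TPM in the posterior lobe. As in the read counts, the WT anterior pituitary was the lowest of the WT tissues. This coding-only level was computed after the data were seen.

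**Figure D4:**
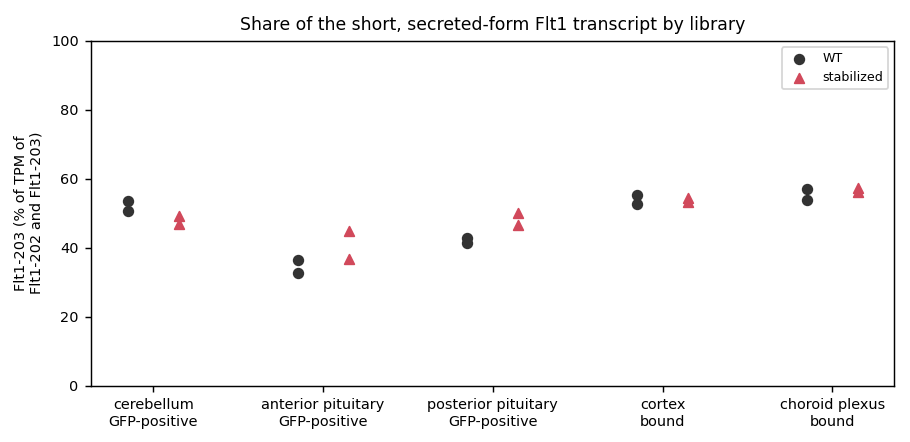
Share of the secreted Flt1 form in the summed TPM of the secreted and full-length forms, in percent, with 1 point per EC library and the groups by tissue and genotype. The WT anterior pituitary libraries are lowest, at 32.6% and 36.4%, and the bound libraries lie between 52.6% and 57.4%.

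A peak near an annotated transcript start (ATAC-seq of GFP-positive cells, 2 replicates per group) was called in every library for 5 of the 9 genes and varied for Aplnr, Pgf, Apln and Esm1. Kdr, Flt1, Flt4, Vegfa and Vegfc had a peak within 1000 bp of their first start in all 12 libraries, Vegfa among them, whose RNA was low in cerebellum ECs. Within 250 bp of a start Vegfa had none in WT cerebellum replicate 1. Esm1 had one in both WT anterior pituitary libraries and 1 stabilized anterior pituitary library. Apln had one in the 4 anterior pituitary libraries and 1 stabilized posterior pituitary library. Aplnr had one in all 8 pituitary libraries and in 1 WT and 1 stabilized cerebellum library. Pgf, nearly silent in the RNA of ECs, had a peak at its first start in the 2 stabilized posterior pituitary libraries alone (fold enrichment 3.17 and 3.65). A further peak in the Pgf gene (chr12:85169511-85169794, in an exon), near the start of an annotated transcript 7895 bp downstream of the first, was called in the 4 anterior pituitary libraries, both stabilized posterior pituitary libraries and 1 stabilized cerebellum library. Between 5 and 9 of the 9 genes had a peak within 1000 bp of any annotated start in a library, against 52.5–60.7% of 21804 genes, and between 5 and 8 had one at the first start, against 48.8–56.7%. The anterior pituitary libraries kept 36860 to 45040 peaks, against 20634 to 26394 in the WT cerebellum and WT posterior pituitary libraries, and the part of peak number in this pattern was not tested.

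The RefSeq promoters of Kdr, accessible in every library, and of Esm1, accessible in few, are shown to compare their CpG content (GRCm38, 250 bases before to 50 after the start, chr5:75978406-75978705 on the minus strand and chr13:113209409-113209708 on the plus strand, CG in capitals). Kdr has 19 CG and Esm1 5, where the median promoter has 7, and 8 of the 9 genes matched a promoter in this table.
Kdr: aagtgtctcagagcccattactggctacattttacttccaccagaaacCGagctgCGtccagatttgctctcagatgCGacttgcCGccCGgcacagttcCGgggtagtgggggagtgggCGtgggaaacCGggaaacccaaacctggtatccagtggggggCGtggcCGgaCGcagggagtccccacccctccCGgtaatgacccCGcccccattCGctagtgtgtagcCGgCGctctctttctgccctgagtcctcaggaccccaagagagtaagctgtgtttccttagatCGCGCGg
Esm1: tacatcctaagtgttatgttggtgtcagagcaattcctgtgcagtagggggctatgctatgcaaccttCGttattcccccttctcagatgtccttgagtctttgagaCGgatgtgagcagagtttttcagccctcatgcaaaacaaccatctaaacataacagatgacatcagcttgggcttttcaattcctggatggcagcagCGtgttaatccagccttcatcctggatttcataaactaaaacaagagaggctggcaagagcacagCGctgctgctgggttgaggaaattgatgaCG
The other matched promoters held 29 CG for Flt1, 26 for Flt4, 35 for Vegfc and 15 for Apln. Vegfa and Pgf had 2 entries each, with 16 and 10 CG for Vegfa and 23 and 7 for Pgf. A peak overlapped the entries of Kdr, Flt1, Flt4 and Vegfc in all 12 libraries, the 16-CG entry of Vegfa in 11, that of Apln in 4, that of Esm1 in 3 and the 23-CG entry of Pgf in 2, and the second entry of Vegfa and of Pgf in 0. None of the promoters of the matched genes held ATCAAAG or TTCAAAG, the letters bound by TCF/LEF factors, on either strand, against 8.65% of the 32851 promoters of this length. ACGTG, the core bound by hypoxia-inducible factors, was found in the 10-CG entry of Vegfa, which a peak overlapped in 0 libraries. It was in no other entry of the matched genes, the 16-CG entry of Vegfa included, against 19.6% of all promoters.

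**Figure D5:**
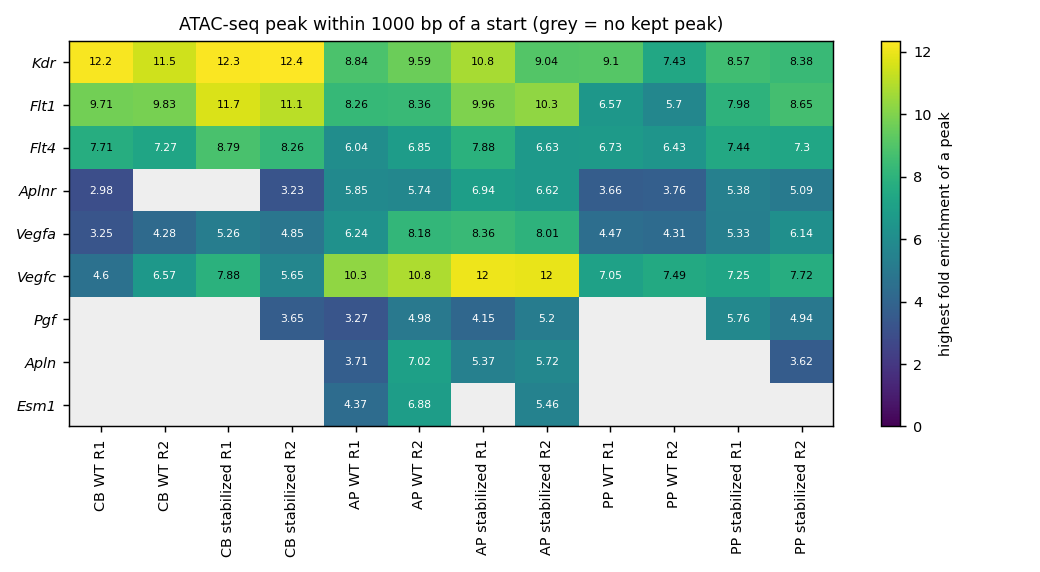
Highest fold enrichment of an ATAC peak within 1000 bp of any annotated transcript start of each gene in each of the 12 EC libraries, with blank cells where no peak was kept. Kdr, Flt1, Flt4, Vegfa and Vegfc are filled in all 12 columns, while Esm1 and Apln are filled mainly in the anterior pituitary columns and Aplnr in all pituitary columns. The Pgf values are those of the peak near the downstream start.

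Peaks present in both replicates of one genotype and neither of the other (gained or lost with stabilization) were counted within 100 kb of each gene. In the cerebellum 4 of the 9 genes had a gained peak (45.3% of 21804 genes had one), in the anterior pituitary 2 (27.2%) and in the posterior pituitary 6 (50.8%). A lost peak was near 2 of the 9 genes in the cerebellum (6.38%), 3 in the anterior pituitary (19.5%) and 1 in the posterior pituitary (4.56%). In the posterior lobe the WT libraries kept 21050 and 20634 peaks and the stabilized ones 28926 and 38583. In the cerebellum the WT libraries kept 26394 and 24020 and the stabilized ones 33514 and 31669, and the part of peak number in these gains was not tested. Flt1 had 6 gained peaks in the cerebellum and 9 in the posterior pituitary, Apln 4 and 3, and Kdr 1 and 5.

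The following were picked because each holds the TCF/LEF letters: 2 gained peaks near Flt1 and 1 near Apln that were called in stabilized cerebellum ECs and in no other group, and a peak upstream of Aplnr that was called in every group except WT posterior pituitary ECs. The letters ATCAAAG or TTCAAAG were searched on both strands of the window printed, centred on the summit. They were found in 12.9% of the gained cerebellum peaks, 21.7% of the gained anterior and 15% of the gained posterior pituitary peaks, and in 6.57%, 3.79% and 2.78% of the lost ones. Of all peaks of both replicates, 7.48% in WT and 9.64% in stabilized cerebellum ECs held them, 4.37% and 6.38% in the anterior and 3.09% and 6.91% in the posterior pituitary. Among the lost peaks near the 9 genes 1 held the letters, a peak 97053 bp from the Esm1 start (chr13:113306291-113306909, in an intron of BC067074) that was called in WT cerebellum ECs alone (4.6 and 6.62). The match is a description of the letters and not a site. The first Flt1 peak lies 51563 bp downstream of the Flt1 start (chr5:147674090-147674625, in an intron) with a fold enrichment of 5.52 and 6.1 in the 2 libraries, the second at -83910 bp, upstream (chr5:147809746-147810064) with 3.62 and 3.75. The Apln peak lies 11940 bp past the start (chrX:48022788-48023083) with 3.59 and 3.78, and the Aplnr peak at -4301 bp from the start (chr2:85131784-85132175). Windows are given on the plus strand of GRCm38 (chr5:147674348-147674548, chr5:147809821-147810021, chrX:48022813-48023013 and chr2:85131824-85132024) with the letters in capitals, the Aplnr match being on the minus strand.
Flt1 intron: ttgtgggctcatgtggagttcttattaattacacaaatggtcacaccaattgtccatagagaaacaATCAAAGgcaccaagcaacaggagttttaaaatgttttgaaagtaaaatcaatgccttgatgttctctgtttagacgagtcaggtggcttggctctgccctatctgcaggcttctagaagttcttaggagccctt
Flt1 upstream: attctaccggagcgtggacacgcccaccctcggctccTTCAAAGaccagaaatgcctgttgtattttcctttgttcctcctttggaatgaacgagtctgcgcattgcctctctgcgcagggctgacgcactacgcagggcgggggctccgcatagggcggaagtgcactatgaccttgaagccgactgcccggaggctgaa
Apln downstream: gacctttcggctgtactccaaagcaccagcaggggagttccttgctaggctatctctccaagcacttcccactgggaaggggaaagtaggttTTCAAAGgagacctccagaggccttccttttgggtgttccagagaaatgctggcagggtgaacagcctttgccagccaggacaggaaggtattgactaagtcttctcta
Aplnr upstream: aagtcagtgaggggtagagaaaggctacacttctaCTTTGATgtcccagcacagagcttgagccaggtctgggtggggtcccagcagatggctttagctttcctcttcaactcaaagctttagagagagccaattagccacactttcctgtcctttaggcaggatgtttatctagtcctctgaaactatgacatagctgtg
The RNA of Flt1 and Apln was not called different in the cerebellum ECs where these peaks were gained (adjusted p = 0.699 and 0.541). Kdr had a peak at -26003 bp from its start (chr5:76004130-76004605) in both stabilized cerebellum libraries (fold enrichment 4.06 and 3.41), both stabilized anterior pituitary libraries (4.88 and 3.64) and 1 stabilized posterior pituitary library (2.61), and in no WT library. Of the 31 gained posterior pituitary peaks near the 9 genes, only the Aplnr peak printed and a Flt1 peak 145472 bp past the start held the TCF/LEF letters. Neither gained anterior pituitary peak did. Among the gained cerebellum peaks not printed, those 44570 bp past the Flt1 start and 41973 bp past the Apln start held them.

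The wider pathway was described with 4 gene lists. Of the 4 tested among the other ligands and co-receptors, the co-receptors Nrp1 and Nrp2 were enriched in ECs of all 3 sorted tissues. Nrp1, which presents VEGF-A to KDR, fell with Kdr in the posterior pituitary, with 64.2 and 71.0 TPM in stabilized and 422 and 357 TPM in WT ECs (log2 fold change -1.72, SE 0.25, adjusted p = 0.00448). The EC marker list was lower and the microglia list higher in these stabilized posterior pituitary libraries, as given beside Kdr, and their part in Nrp1 was not tested. The Nrp1 difference was larger in TPM than in the count fit. Nrp2, the co-receptor of FLT4, fell with Vegfc in the cerebellum, with 3.25 and 4.41 TPM in stabilized and 12.1 and 10.8 TPM in WT ECs (log2 fold change -1.58, SE 0.26, adjusted p = 0.0129). In WT, Nrp2 was lower in cerebellum than in either pituitary lobe and Nrp1 lower than in the posterior lobe. The Nrp1 call in stabilized posterior pituitary was lost without stabilized replicate 1 (adjusted p = 0.086) or 2 (adjusted p = 0.0503), and the Nrp2 call in stabilized cerebellum without stabilized replicate 1 (adjusted p = 0.0508) and with the length offset (adjusted p = 0.0902). In cortex input Vegfb, a ligand of FLT1, was called higher in stabilized libraries, but the genotypes overlapped in TPM, with 24.2 and 20.9 TPM in stabilized and 19.2 and 25.7 TPM in WT (log2 fold change 1.82, SE 0.12, adjusted p = 9.93e-05).

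Of 15 VEGF receptor signaling genes, 1 rose and 2 fell in stabilized posterior pituitary ECs, 1 rose and 1 fell in the anterior pituitary, and 0 passed in the cerebellum (of all genes 1.79%, 0.458% and 0.648% were called; edgeR; in the cerebellum 2 had an unadjusted p under 0.05 and DESeq2 called 0; median log2 fold changes -0.16, 0.21 and -0.32, against 0.01, 0.06 and -0.08 over all genes). Prkcb, a protein kinase C, rose in both lobes, with 12.3 and 20.6 TPM in stabilized and 2.24 and 1.31 TPM in WT posterior pituitary ECs (log2 fold change 3.06, SE 0.61, adjusted p = 0.028) and 10.4 and 13 TPM in stabilized and 0.944 and 0.894 TPM in WT anterior pituitary ECs (log2 fold change 3.37, SE 0.62, adjusted p = 0.0366). It was also higher in WT cerebellum than in WT posterior pituitary ECs, with 50.3 and 17.2 TPM in cerebellum and 2.24 and 1.31 TPM in posterior pituitary (log2 fold change 3.71, SE 0.63, adjusted p = 0.00363). Nos3, the endothelial nitric oxide synthase, was likewise higher in WT cerebellum ECs, with 37.2 and 35.6 TPM in cerebellum and 5.38 and 7.55 TPM in anterior pituitary (log2 fold change 2.67, SE 0.26, adjusted p = 3.78e-05), and also against the posterior pituitary (log2 fold change 1.83, SE 0.25, adjusted p = 7.09e-04). Prkcb is also expressed by microglia, whose marker list was higher in the same pituitary ECs, from 26.4 and 17.9 to 171 and 279 TPM in the anterior lobe, and the part of these cells was not tested. The Prkcb call was lost without WT or stabilized replicate 2 in the anterior lobe (adjusted p = 0.154 and 0.147) and without any 1 of the 4 libraries in the posterior lobe (adjusted p = 0.0594 to 0.181). Ptprb, a vascular phosphatase of VEGF and Tie2 receptors, fell in the posterior pituitary, with 49.0 and 69.9 TPM in stabilized and 207 and 359 TPM in WT (log2 fold change -1.53, SE 0.31, adjusted p = 0.0286). The other that fell was Ptk2, the focal adhesion kinase, with 25.0 and 21.3 TPM in stabilized and 83.8 and 65.2 TPM in WT (log2 fold change -1.13, SE 0.25, adjusted p = 0.0455). Hspb1, a stress protein phosphorylated downstream of KDR, fell in the anterior pituitary, with 292 and 173 TPM in stabilized and 852 and 646 TPM in WT (log2 fold change -2.21, SE 0.37, adjusted p = 0.0211), and rose in bound cortex RNA, with 189 and 219.5 TPM in stabilized and 76.0 and 31.4 TPM in WT (log2 fold change 2.58, SE 0.39, adjusted p = 0.00744). Of 14 tested in bound cortex RNA 3 rose (6.32% of all genes were called), Hspb1, the adaptor Pxn, with 37.3 and 39.9 TPM in stabilized and 18.6 and 18.8 TPM in WT (log2 fold change 1.66, SE 0.31, adjusted p = 0.0162), and the phospholipase Plcg1, with 28.6 and 34.0 TPM in stabilized and 43.6 and 16.7 TPM in WT (log2 fold change 1.30, SE 0.23, adjusted p = 0.0126), whose TPM overlapped between genotypes. In cortex input RNA 2 of 14 tested also rose, Hspb1 and Pxn (11.8% of all genes were called). There too the transcript length differed between the genotypes. As given above, the EC marker list was lower and the microglia list higher in the stabilized posterior pituitary libraries, and the neuron and microglia lists were lower in the stabilized bound cortex libraries. Their part in Ptprb and Ptk2, and in Hspb1, Pxn and Plcg1, was not tested. Leaving out 1 library lost the Ptprb and Ptk2 calls for 3 of the 4 libraries each (adjusted p up to 0.327 and 0.4), the Pxn and Plcg1 calls without either stabilized library (up to 0.104 and 0.109), the anterior pituitary Hspb1 call for each of the 4 (up to 0.187) and the bound cortex Hspb1 call without stabilized replicate 2 (adjusted p = 0.0505). With the length offset the calls of Ptprb (adjusted p = 0.124), Ptk2 (0.487), Plcg1 (0.267) and anterior pituitary Hspb1 (0.15) were lost.

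Of 15 VEGF-induced and tip cell genes, 0 passed the edgeR test for stabilized against WT in any of the 3 EC groups, with median log2 fold changes of -0.87 in cerebellum, -0.50 in anterior and -0.67 in posterior pituitary, against the medians over all genes given above. In the same order 4, 3 and 4 had an unadjusted p under 0.05 and DESeq2 called 3, 0 and 2. Of 14 tested in bound RNA, 2 rose in cortex, Nid2 and Pdgfb (6.32% of all genes were called), and 1 in choroid plexus, Angpt2 (0.852%). Pdgfb, the gene whose promoter drives the Cre, stood in cortex at 35.8 and 46.1 TPM in stabilized and 17.8 and 7.30 TPM in WT (log2 fold change 2.02, SE 0.38, adjusted p = 0.0162). Between WT tissues Plvap, a fenestral diaphragm protein, was lower in cerebellum than in posterior pituitary ECs, with 0 and 10.7 TPM in cerebellum and 1160 and 1112 TPM in posterior pituitary (log2 fold change -7.37, SE 1.84, adjusted p = 0.04). Of 15 hypoxia factors and hypoxia-induced genes, 0 passed the edgeR test for genotype in the EC groups (0, 1 and 1 had an unadjusted p under 0.05 and DESeq2 called 0, 0 and 0, in the order above). Epas1, the endothelial HIF subunit, was lower in WT anterior than in WT posterior pituitary ECs, with 75.4 and 90.2 TPM in the anterior and 280 and 355 TPM in the posterior lobe (log2 fold change -1.74, SE 0.31, adjusted p = 0.0173), in the direction of Flt1 in the same libraries. In bound cortex RNA Pgk1, a glycolytic enzyme, fell, with 13.9 and 9.64 TPM in stabilized and 160.4 and 149 TPM in WT (log2 fold change -1.76, SE 0.26, adjusted p = 0.00628), a call lost without stabilized replicate 2 (adjusted p = 0.0662). The neuron and microglia lists were lower in the same stabilized libraries, as given beside Flt4, their part in Pgk1, Pdgfb and Nid2 was not tested, and the Pgk1 difference was larger in TPM than in the count fit. The Pdgfb call was lost without stabilized replicate 1 (adjusted p = 0.101) or 2 (adjusted p = 0.0808), the Plvap call without posterior pituitary replicate 1 (adjusted p = 0.0542) or 2 (adjusted p = 0.088), and the Epas1 call without 3 of the 4 libraries (adjusted p = 0.0724 to 0.174). The length offset also lost the Plvap (adjusted p = 0.0681) and Epas1 (adjusted p = 0.054) calls. In cortex input Vhl was called lower in stabilized libraries (log2 fold change -1.09, adjusted p = 0.00805), a direction that turned to 0.55 with the length offset.

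The genes whose level most resembled that of each member over 20 RNA group means are given as a description, since all groups share the EC enrichment. Kdr was nearest to Mmrn2 (Pearson r 0.989 on log2(TPM + 1) over 12715 genes), Cdh5 and Arap3, and Flt4 to Scarf1 (0.992), Tie1 and Kdr. Flt1 was nearest to Adgrf5 (0.98), Ptprb and Epas1, and Aplnr to F2r (0.974), P2ry10b and Pcdh12. Vegfa was nearest to Gsn (0.876), Ppil6 and Fgd4, Vegfc to Chst14 (0.946), Ddah2 and Inpp5k, Apln to Ndufa8 (0.931), Aida and Enpp4, and Esm1 to Styk1 (0.923), Cd24a and H2-Q2. Cdh5, Tie1 and Mmrn2 are established EC genes. Pgf, which did not reach 10 TPM in any group mean, was nearest to Rnf43 (0.808), Gm9625 and Dclk2. The order of these genes depended on the pseudocount: with 0.1 in place of 1, Ndufa8 ranked 24 and Enpp4 42 for Apln, F2r 24 for Aplnr, Rnf43 15 and Dclk2 20 for Pgf, Arap3 13 for Kdr and Tie1 11 for Flt4, and the other genes named here ranked 7 or better.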

How the data were processed

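RNA was measured in 24 libraries of sorted cells and 16 RiboTag libraries, and open chromatin in 12 libraries. Per the labels, the authors quantified single-end reads of 75 cycles with Salmon 0.10.2 on mouse transcripts (kallisto 0.44.0 is also named) and deposited estimated counts and TPM per transcript, and they aligned ATAC reads with Bowtie2 2.3.2 to mm10 (GRCm38) and deposited MACS2 2.1.1.20160309 peaks with a fold enrichment (a ratio of pileup to background), −log10 p-values and −log10 q-values, called per library, and a score. Salmon counts are estimates in which reads shared by transcripts or by near-identical genes are divided by a model. Library preparation amplified small amounts of RNA, so that a count is not a count of molecules. The SEs printed with fold changes come from the quasi-likelihood fits and include the spread between replicates.

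Here 130338 of 130740 transcripts were matched to GENCODE M21 and summed into 49585 genes, and the rest (0.0588–0.385% of the reads of a library) were left out. Gene sums were made whole and entered edgeR 4.0.16 in R 4.3.3 (quasi-likelihood, TMM, filterByExpr), in 6 fits: ECs, GFP-negative cells, both sorted fractions, bound, input, and both RiboTag fractions. P-values were adjusted by Benjamini-Hochberg over all genes of the fit, and a call needed an adjusted p under 0.05 and at least a 2-fold change. There were 27 comparisons, of which 4 tested a difference of responses. Bound and input RNA were aliquots of 1 homogenate and so are paired by source. The deviations of the 2 aliquots from their group means correlated at 0.049–0.144, and those of the 2 sorted fractions of the same number at -0.0038–0.0906. ATAC peaks were kept at a fold enrichment over 2 and −log10 q over 2. A peak counted at a start where it lay within 1000 bp of any annotated transcript start, with 250 bp and the first start alone as alternatives. Sequences came from RefSeq tables and the genome of GRCm38.p6. Scripts used Python 3.11.15 with pandas 2.3.3, numpy 2.4.6, pysam 0.24.0 and matplotlib 3.10.9. In each fit 1 comparison was tested on simulated data. Of simulated log2 changes of 1 and of 2, the test recovered 6% and 32% for genotype in posterior pituitary ECs. It recovered 2% and 20% for the GFP-negative cells of that lobe, and 0% and 8% between the sorted fractions of WT cerebellum. For choroid plexus genotype it recovered 16% and 62% in bound and 36% and 98% in input RNA. For bound against input WT cortex it recovered 26% and 82%. A comparison without a call can therefore miss such changes. Alternatives were DESeq2 1.42.0, RLE scaling, no filter, a replicate block, a length offset, fits of only the groups compared, and leaving out each library.

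The 9 genes, the 4 pathway lists and the 13 marker lists were chosen with earlier results of these data known. Every member is described. Other pathway genes could be named, up to 4 per direction and comparison, where called and at 10 TPM or more in both libraries of the higher group. Those of stabilized against WT are all named, with some of those between WT tissues, and Nid2 and Angpt2 are named beyond this limit after their values were seen. The 3 most similar genes were named for each member.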

Additional observations from a re-analysis of the deposited data

Results flagged for a closer look

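The response of Apln to beta-catenin stabilization differed between the bound RNA of the choroid plexus and that of the cortex by 5.54 on the log2 scale in the test of the difference itself (edgeR, n = 2 libraries per group, adjusted p = 0.0262). Apln was higher in both stabilized than in both WT choroid plexus libraries and lower in both stabilized than in both WT cortex libraries. The WT choroid plexus libraries held 2 and 4 Apln reads. The call was lost with the length offset (edgeR adjusted p = 0.0655) and when some single libraries were left out. In the cortex, genotype cannot be told apart from the effective transcript length. No explanation was tested.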

How the results depend on the processing

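The precision is limited by 2 libraries per group. Of the 52 calls of the 9 genes, DESeq2, RLE scaling and the fit without a low-count filter kept 52, a replicate block 50, a length offset 40 and fits of only the groups compared 38, where fewer libraries estimate the spread. Leaving out 1 library kept 162 of 212. No call changed sign except Flt1 in WT cortex against choroid plexus input, whose log2 fold change was 0.034 with the length offset. Except where stated, the cause was not tested.

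With DESeq2 the number of the 9 genes called was 5 for WT cerebellum against anterior pituitary ECs, 4 for cerebellum against posterior pituitary ECs, 2 for stabilized against WT in cerebellum ECs and 3 in posterior pituitary ECs. For the differences of responses it was 2 (posterior minus anterior pituitary), 3 (posterior pituitary minus cerebellum), 1 (anterior pituitary minus cerebellum) and 2 (choroid plexus minus cortex bound). For stabilized against WT it was 1 in cerebellum and 1 in posterior pituitary GFP-negative cells, 2 in cortex bound and 2 in cortex input RNA. Without the low-count filter these counts were, in the same order, 5, 4, 3, 3, 2, 4, 1, 2, 1, 1, 2 and 2. The replicate block, the replicate number in these 2 comparisons, gave 2 for stabilized against WT posterior pituitary ECs and 1 for cerebellum against anterior pituitary GFP-negative cells (Vegfa adjusted p = 0.0573), where the samples share only a number. With the preparation as the block, Aplnr in bound against input cortex was the only call lost, and the block changed no other call.

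The length offset gave 0 for cerebellum against posterior pituitary ECs, 0 for stabilized against WT cerebellum ECs, 2 for posterior pituitary ECs, 1 for the response of posterior pituitary minus cerebellum, 1 for cerebellum against anterior and 1 against posterior pituitary GFP-negative cells, 0 between the lobes there, 0 for stabilized against WT choroid plexus bound RNA and 0 for its difference from cortex. Fits of only the groups compared gave 0 for cerebellum against posterior pituitary ECs, 0 between the lobes, 0 for stabilized against WT cerebellum and 0 for posterior pituitary ECs, 1 for cerebellum against anterior pituitary GFP-negative cells, 3 for GFP-positive against GFP-negative cerebellum, 0 for choroid plexus bound and 0 for cortex input RNA. With no minimum fold, 2 were called in cortex input.

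Leaving out each library in turn gave 1–4 calls for cerebellum against anterior and 0–4 against posterior pituitary ECs, 0–1 between the lobes, 0–2 for stabilized against WT cerebellum and 0–3 for posterior pituitary ECs. The differences of responses gave 0–2 (posterior minus anterior pituitary), 0–1 (posterior pituitary minus cerebellum), 0–1 (anterior pituitary minus cerebellum) and 0–2 (choroid plexus minus cortex). In GFP-negative cells the counts were 1–1 and 1–2 for cerebellum against anterior and posterior pituitary, 0–1 between the lobes, and 0–1 and 0–1 for genotype in cerebellum and posterior pituitary. They were 0–2 for genotype in cortex bound, 0–0 in choroid plexus bound and 0–2 in cortex input RNA.

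As shares of estimated reads instead of TPM, the median share of the secreted Flt1 form was 44.8% and that of the short processed Flt1 transcript 0.158%. Within 10 kb, 2 of the 9 genes had a gained (15.8% of all genes) and 0 a lost peak (1.69%) in the cerebellum, 0 a gained peak in the anterior (8.16%) and 0 a lost peak in the posterior pituitary (1.19%). With replicate 1 of each genotype alone, 7 had a gained (64.4%) and 5 a lost peak (27.8%) in the cerebellum, 6 (57.2%) and 8 (47.1%) in the anterior pituitary, and 5 a lost peak in the posterior pituitary (21.4%). With replicate 2 alone, 7 had a gained peak in the cerebellum (63.2%), and 5 a gained (46.3%) and 8 a lost peak (59.8%) in the anterior pituitary. At a fold enrichment over 4 and −log10 q over 5, 1 had a lost peak in the cerebellum (4.46%). The window around the first start alone was added after seeing the data.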

Other observations

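The annotated transcripts of Vegfa differ in the exons that set binding to heparan sulfate. The share of Vegfa-201, a protein-coding transcript, in the Vegfa TPM varied widely between replicates of the sorted GFP-negative cells, for example 75.4% and 0% in WT posterior pituitary, and the pooled SD over the GFP-negative and input groups was 24.2 percentage points. In the RiboTag input the replicates lay closer. The share was 73.3% and 73.9% in WT cortex, 0.319% and 0.947% in stabilized cortex, 3.48% and 0% in WT and 3.26% and 5.88% in stabilized choroid plexus. This division is also that of the effective transcript length, which was 511 and 579 bases in the WT cortex input and 209–224 bases in the other input libraries, and the share and the length cannot be told apart. For comparison, Kdr-201 made up 95.9–100% of the Kdr TPM in the EC and bound groups.

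A peak whose summit lay 60775 to 60875 bp past the Aplnr start, in exons of Lrrc55 and Gm13716, was called in both WT cerebellum libraries (fold enrichment 5.02 and 3.64), in both stabilized anterior pituitary libraries (8.87 and 12) and in both stabilized posterior pituitary libraries (4.66 and 5.58). It was called in none of the WT pituitary or stabilized cerebellum libraries.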
